A study of Oryza sativa Indica Group with 4 samples.

Results

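Growth-regulating factor (GRF) genes encode plant transcription factors, and the names GRF1 to GRF10 of rice were looked up among the probe sets of an Affymetrix rice array through the probe-to-gene table and the synonyms of NCBI's gene table. Of the 10 names, 8 led to a gene of their own with a paired probe set, and these 8 genes had 9 of the 57194 probe sets other than controls, because GRF10 had 2. They were 8 of 17905 genes with a probe set paired with them alone. The 8 genes were GRF1 (LOC4330903), GRF3 (LOC4336879), GRF4 (LOC4330436), GRF5 (LOC4339928), GRF6 (LOC4333990), GRF7 (LOC9268363), GRF8 (LOC4350711) and GRF10 (LOC4330314). GRF2 and GRF9 were not analysed here. In the gene table the name grf2 is a synonym of GRF4, and grf3 is also a synonym of GRF5, so each gene was counted once, under its OsGRF name.

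RNA came from panicle primordia of Oryza sativa (Indica Group) at the stage the submitters number 0. The high grain number bulk pooled 10 recombinant inbred lines with many grains per panicle, and the low grain number bulk pooled 10 such lines with few, all derived from a pair of cultivars. Each bulk was measured in 2 biological replications, giving 2 high and 2 low grain number arrays. The labels do not say what the replications share, and the values of single lines within a bulk are not seen. The p-values therefore cover only the spread between arrays of a kind. In limma that spread is estimated from a probe set's own arrays and from other probe sets.

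GRF proteins bind DNA through a WRC domain and bind GRF-interacting factors, which are transcriptional co-activators, through a QLQ domain. Most GRF messenger RNAs are cut by the microRNA miR396, and the family promotes cell division in growing leaves and flowers. In rice, GRF4 is known for its effect on grain size and GRF6 for its effect on panicle branching.

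The arrays differed in brightness before any comparison was made. The trimmed mean of the deposited signal was 39.3 and 40.7 on the high grain number arrays, against 36.7 and 55.6 on the low grain number arrays, so low grain number replicate 2 stood above the others. Values were therefore quantile normalised, which gives all arrays the same distribution, and results are also given with the deposited scaling. The signal of actin probes at the 3' end over those at the 5' end, which grows as RNA degrades, was 33.3 and 36.9 in the high bulks and 42.2 and 47.8 in the low bulks. So the 3' signal of actin was many times the 5' signal on every array. The part of this ratio in the results below was not tested.

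None of the 8 GRF genes differed between the high and the low grain number bulks past the threshold, and their differences were small. All 8 lay above the filter on dim probe sets. With limma and Benjamini-Hochberg adjustment over 34316 tested probe sets, 0 of the 8 passed an adjusted p of 0.05 (two-sided), where 0.568% of all tested probe sets passed. At an unadjusted p under 0.05 the count was also 0 of 8, against 8.24% of tested probe sets. The smallest limma adjusted p was 0.779, for GRF4, and the largest was 0.976, for GRF7. The median absolute log2 difference was 0.16 over the 8 genes, the same as the 0.16 over all tested probe sets.

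The direction of the family depended on how the arrays were scaled. After quantile normalisation 7 of the 8 genes had a positive high minus low difference, and their median was 0.16 on the log2(intensity + 16) scale, where 52.1% of tested probe sets were positive and their median was 0.01. With the deposited scaling 4 of the 8 were positive, with a median of -0.03, where 37.9% of tested probe sets were positive and their median was -0.07. The change of scaling moved each of the 8 differences by 0.09 to 0.19 on the log2 scale, which was more than the difference itself for GRF1, GRF3, GRF6 and GRF7.

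**Figure D1:**
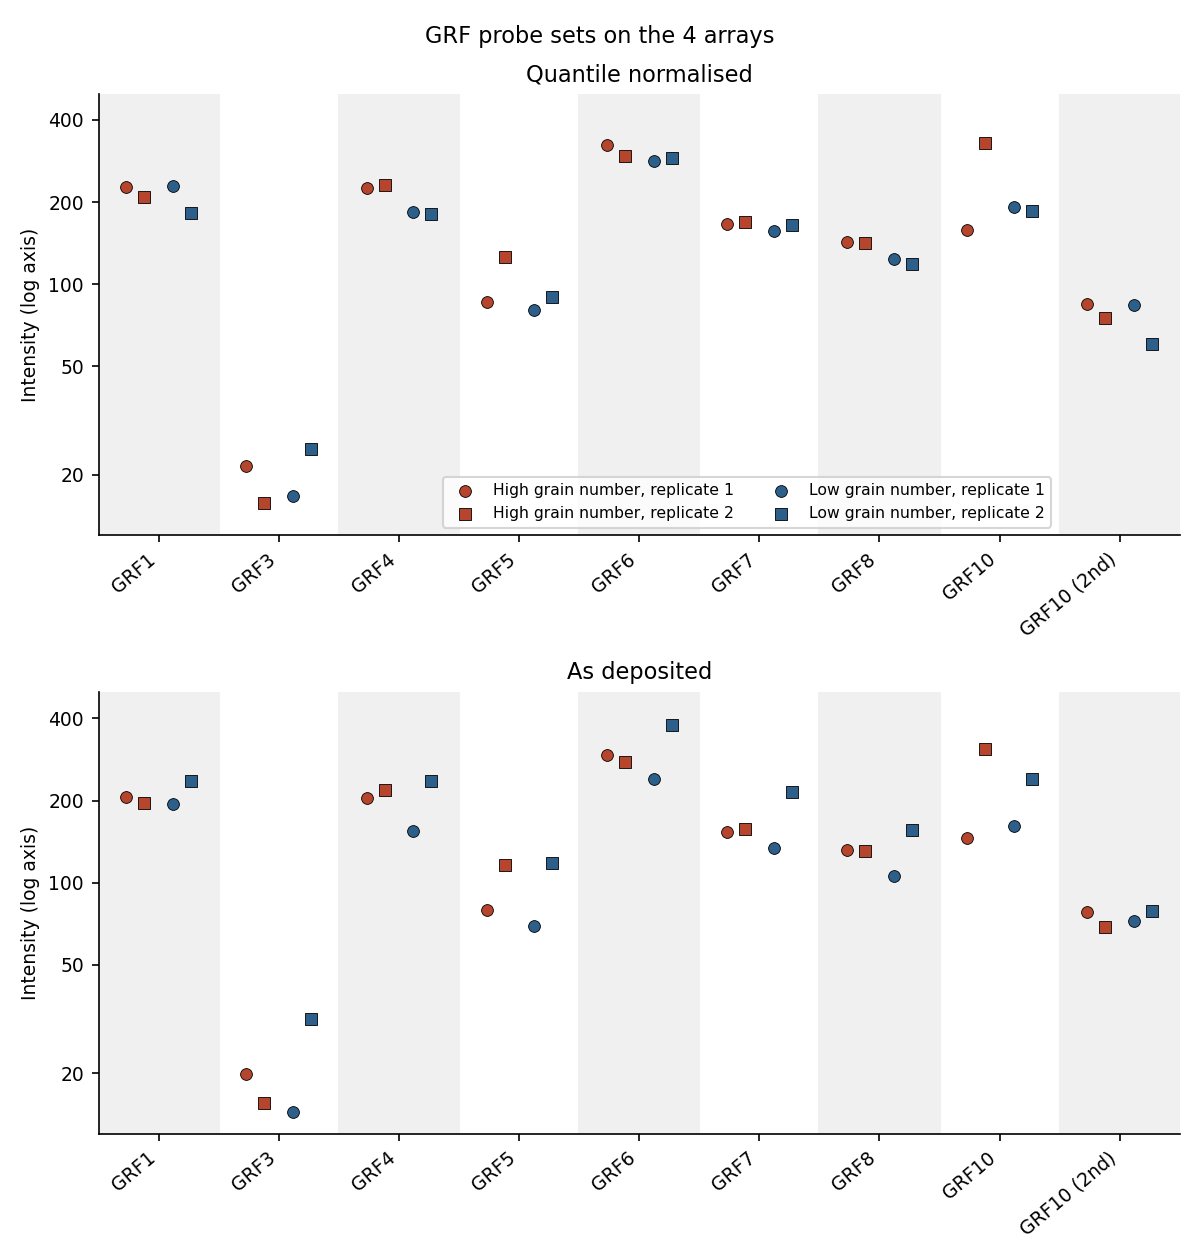
Intensity of each GRF probe set on the 4 arrays, after quantile normalisation (top) and as deposited (bottom), on a log axis; circles are replicate 1 and squares replicate 2, red for the high and blue for the low grain number bulks. GRF4 stood at 224 and 232 in the high bulks against 183 and 181 in the low bulks after quantile normalisation, whereas low grain number replicate 2 was the brightest array for 7 of the 8 genes as deposited.

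GRF4, also known as GS2, is a regulator of grain size and had the largest difference of the family. Its quantile normalised intensity was 224 and 232 in the high grain number bulks, against 183 and 181 in the low grain number bulks. Both high arrays stood above both low arrays. The log2 difference was 0.30 ± 0.19 (SE), a ratio of 1.23 with a 95% interval of 0.92 to 1.65 (limma adjusted p = 0.779). GRF4's replicate gaps were 0.04 in the high and 0.02 in the low bulks on the log2 scale, both smaller than the difference, while limma's SE also draws on the spread of other probe sets. As deposited, the same probe set read 204 and 219 in the high bulks, against 155 and 236 in the low bulks, and the groups overlapped. The difference was then 0.13 ± 0.43 (SE, limma adjusted p = 1).

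GRF8, known from work on resistance to the brown planthopper, had the other difference that was larger than both replicate gaps. Its intensity was 143 and 141 in the high bulks, against 124 and 119 in the low bulks, without overlap. The log2 difference was 0.20 ± 0.20 (SE, limma adjusted p = 0.879), with a 95% interval of -0.24 to 0.64. As deposited it read 132 and 130.4 in the high bulks, against 106 and 156 in the low bulks, and low replicate 2 was the highest of the 4. A difference larger than both gaps was seen in 2 of the 8 genes, and in 25.3% of all tested probe sets.

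GRF6, a gene known to promote panicle branching as a target of miR396, had an intensity of 325 and 295 in the high bulks, against 282 and 290.3 in the low bulks. The groups did not overlap, but high replicate 2 and low replicate 2 were close. The log2 difference was 0.11 ± 0.19 (SE), with a 95% interval of -0.31 to 0.52 (limma adjusted p = 0.946). With the deposited scaling the difference was -0.07.

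GRF7, a regulator of plant architecture and leaf angle, varied least of the 8 across the 4 arrays. It read 166 and 169 in the high bulks, against 156 and 164 in the low bulks, so the highest array was 1.09 times the lowest. The groups did not overlap, yet the log2 difference of 0.06 ± 0.20 (SE) was smaller than the gap of 0.07 between the low replicates. With the deposited scaling it was -0.12. In all, 4 of the 8 genes (GRF4, GRF6, GRF7 and GRF8) had no overlap between the groups after quantile normalisation, each with the high bulks above, where 37.1% of tested probe sets had no overlap and 19.6% had the high bulks above. With the deposited scaling 0 of the 8 passed the limma test, where 0.787% of tested probe sets passed, and 0 of the 8 had no overlap, where 29.5% of tested probe sets had none.

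GRF1, first studied as a gibberellin-induced gene of the elongating rice stem, had an intensity of 227 and 209 in the high bulks, against 229.6 and 182 in the low bulks. The groups overlapped, and low replicate 1 was the highest of the 4. Its log2 difference was 0.09 ± 0.21 (SE), and it was -0.07 without low grain number replicate 2 and -0.09 with the deposited scaling.

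GRF3 and GRF10 are known in rice as repressors of the KNOX gene Oskn2. GRF3 was dim, with an intensity of 21.6 and 15.7 in the high bulks, against 16.7 and 24.9 in the low bulks. The groups overlapped, and the log2 difference was -0.08 ± 0.21 (SE), the only negative one among the 8 after quantile normalisation. Since these levels are close to the 16 added before taking logs, the scale pulls the difference towards 0, and with log2(value + 1) it was -0.14. It was 0.04 with high grain number replicate 2 left out and 0.07 with low grain number replicate 2 left out.

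GRF10 was the most uneven of the 8 between replicates. Its brighter probe set read 158 and 329 in the high bulks, against 191 and 185 in the low bulks, so the high arrays lay on either side of both low arrays. The gap between the high replicates was 0.99 on the log2 scale, against a group difference of 0.26 ± 0.29 (SE, limma adjusted p = 0.898). That difference was 0.76 without high grain number replicate 1 and -0.23 without high grain number replicate 2. The second probe set of GRF10, of a type whose probes can also match other genes, read 84.8 and 75.3 in the high bulks, against 84.1 and 60.5 in the low bulks. There high replicate 2 was below high replicate 1, so the 2 probe sets disagreed on which high array was brighter. Its log2 difference was 0.13 ± 0.22 (SE, limma adjusted p = 0.943), and it was -0.06 without low grain number replicate 2 and -0.03 with the deposited scaling.

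GRF5 also had its highest value on high grain number replicate 2. It read 86.3 and 126 in the high bulks, against 80.2 and 89.9 in the low bulks, and the groups overlapped. The log2 difference was 0.26 ± 0.23 (SE, limma adjusted p = 0.866), and it was 0.50 without high grain number replicate 1 and 0.02 without high grain number replicate 2. RFL, a panicle branching regulator outside the family that was chosen after its values were seen, was likewise brightest on high grain number replicate 2. It read 69.2 and 178 in the high bulks, against 77.0 and 71.5 in the low bulks. Most other young panicle genes of the marker list below did not share this peak. By their brightest probe sets, MADS34 and MADS1 did, whereas OSH1, MADS14, MADS15 and MADS18 were brightest on low grain number replicate 1. LAX1 was brightest on low grain number replicate 2.

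**Figure D2:**
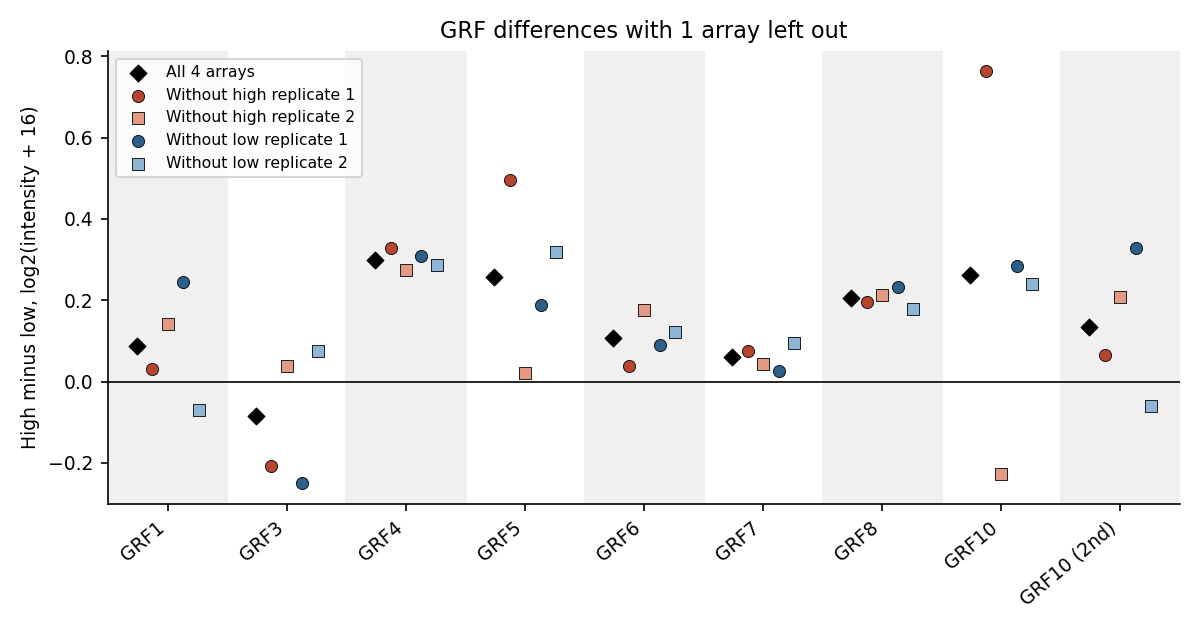
High minus low difference of each GRF probe set on the log2(intensity + 16) scale with all 4 arrays (black diamonds) and with 1 array left out (coloured points). GRF4 stayed between 0.27 and 0.33 and GRF8 between 0.18 and 0.23, whereas GRF10 ran from -0.23 to 0.76.

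Across arrays, the family as a whole shifted little. Relative to each gene's own mean, 6 of the 8 genes were above it on high replicate 1 and 5 on high replicate 2, against 1 on low replicate 1 and 2 on low replicate 2. The SD over the 4 arrays ranged from 0.05 for GRF7 to 0.43 for GRF10 on the log2 scale, against a median of 0.20 over all tested probe sets. With each array left out in turn, 7 of the 8 differences were positive each time, though not the same 7, because GRF1, GRF3 and GRF10 changed sign. The share of positive differences over all tested probe sets was 50.7% to 52.9% in those fits. The median of the 8 genes lay between 0.09 and 0.21. Because these fits share arrays, they are not independent of each other. These counts hold for quantile normalised values, and the 4 of 8 with the deposited scaling stands beside them.

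The intervals give the range of change that these arrays allow. After quantile normalisation the 95% limma intervals of all 8 genes held 0 and lay within 2-fold in either direction. Their outermost bounds were a ratio of 0.68 for GRF3 and of 1.86 for GRF10. The interval lay within 1.5-fold for 4 of the 8. With the deposited scaling the SEs were larger and the 8 intervals still lay within 2-fold. A p above the threshold does not show that the levels were equal, and an exact permutation test of a single gene with 2 arrays against 2 cannot go below a two-sided p of 0.333. In bulk tissue, fewer cells expressing a gene and less RNA per cell cannot be told apart.

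**Figure D3:**
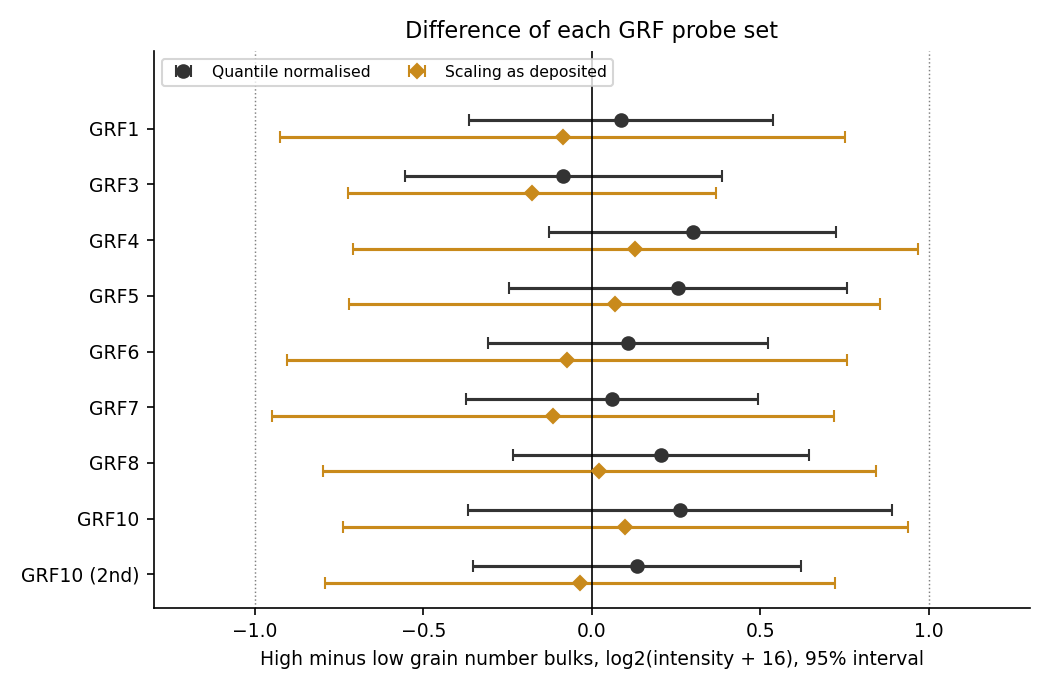
High minus low difference of each GRF probe set on the log2(intensity + 16) scale with its 95% limma interval, after quantile normalisation (circles) and with the deposited scaling (diamonds); dotted lines mark 2-fold. All intervals cross 0, and the deposited scaling moved each point to the left.

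Marker lists were set beside the family to describe the tissue. For the counts below, 0.568% of all tested probe sets passed in limma, and 8.24% had an unadjusted limma p under 0.05. Of 9 young panicle genes with a probe set, 8 were tested, 0 passed in limma and 0 had an unadjusted p under 0.05. Their summed intensity was 2124 and 2253 in the high bulks, against 2473 and 2032 in the low bulks. FZP, which sets spikelet identity, was close to 0 on every array (0.25 to 1.28), and the other 8 were measured. Of 7 genes of dividing cells, 0 passed (limma, 1 at an unadjusted p under 0.05), and 5 were negative and 2 positive. Their sums after quantile normalisation were 3244 and 3208 in the high bulks, against 3405 and 3443 in the low bulks. Both high sums were thus below both low ones on that scale, and the sums were not compared with the deposited scaling. The 3 secondary wall genes summed to 45.4 and 66.2 in the high bulks, against 277 and 327 in the low bulks, and 2 of them, CESA4 and CESA7, fell past the threshold. A second, dimmer probe set of CESA4 did not pass, at 13.7 and 17.4 in the high bulks, against 12.1 and 20.1 in the low bulks (log2 difference -0.02). Of 5 anther genes 1 passed, RTS, at 1.53 and 0.88 in the high bulks, against 224 and 553 in the low bulks. Of the 5, 3 were positive and 2 negative, with a median log2 difference of 0.12. The anther list summed to 1524 and 1262 in the high bulks, against 1499 and 1789 in the low bulks. Without RTS, a sum taken after its values were seen, it was 1523 and 1261 in the high bulks, against 1275 and 1237 in the low bulks, with overlap. The 3 leaf blade genes summed to 2499 and 1999 in the high bulks, against 2578 and 2159 in the low bulks, and 0 passed (limma, 0 at an unadjusted p under 0.05). Most of each sum was CAB2R, at 2410 and 1896 in the high bulks, against 2479 and 2073 in the low bulks. The genes differed in sign, with log2 differences of -0.08 for CAB2R, -0.33 for RCA and 0.42 for RBCS. The part of these tissues in the GRF values was not tested.

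Beyond GRF1 to GRF10, the array paired probe sets with GRF11 (LOC4343178) and GRF12 (LOC4336731). GRF12 read 28.3 and 41.2 in the high bulks, against 19.4 and 18.1 in the low bulks, so both high arrays were above both low arrays. Its log2 difference was 0.53 ± 0.21 (SE), larger than that of any of the 8 genes, but it missed the threshold over all probe sets (limma adjusted p = 0.537). It was 0.42 with the deposited scaling. GRF11 read 349.7 and 361 in the high bulks, against 358 and 427 in the low bulks, and the groups overlapped. Its log2 difference was -0.13 ± 0.19 (SE, limma adjusted p = 0.926).

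MKB3 (LOC4334010), a rice GRF-interacting factor, was the co-activator matched by name, and GIF2, GIF3 and AN3 were not analysed here. It read 781 and 1052 in the high bulks, against 952 and 930.5 in the low bulks, and the high arrays lay on either side of the low ones. The log2 difference was -0.05 ± 0.18 (SE, limma adjusted p = 0.977). The symbol GIF1 in the gene table belongs to a cell wall invertase, so that gene was not counted as a partner. The genes of miR396 itself were not analysed here.

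In all, 22 other genes of the pathway were tested of 24 with a paired probe set, namely 2 further GRF genes, 3 partners, 3 regulators and 14 of 16 reported downstream genes. None of the 22 passed in limma, where 0.568% of tested probe sets passed. At an unadjusted limma p under 0.05 the count was 3 of 22, against 8.24% of tested probe sets. The 22 had a median log2 difference of -0.05, with 9 positive and 13 negative. The deposited scaling gave a median of -0.17, with 3 positive and 19 negative, and 6 of the 22 changed sign. Among partners and regulators (MKB3, SLR1 and BZR1; AGO1A and AGO1B, which bind microRNAs, and GSK2, a kinase of brassinosteroid signalling) differences ran from -0.05 to 0.19. They ran from -0.23 to 0.02 with the deposited scaling, where AGO1B, SLR1 and GSK2 changed sign. A second, dimmer probe set of AGO1B was at -0.10 ± 0.21 (SE) after quantile normalisation, opposite in sign to its brighter one. The 14 downstream genes had a median of -0.10, with 10 negative and 4 positive, where 52.1% of tested probe sets were positive. As deposited, 13 were negative and 1 positive, where 37.9% of tested probe sets were positive. These lists were described by their counts only.

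KNOX genes, some of which keep meristem cells undifferentiated, were 4 of the genes tested in the downstream list. Their values were chosen for mention after being seen. OSH71, the Oskn2 gene that GRF3 and GRF10 repress in rice, read 103 and 143 in the high bulks, against 168 and 147 in the low bulks. Both high arrays were below the low ones, but high replicate 2 and low replicate 2 were close. OSH71 differed by -0.33 ± 0.22 on the log2 scale (SE, limma adjusted p = 0.790). The gap between its high replicates was larger, at 0.42. OSH3 was dim, at 7.30 and 1.95 in the high bulks, against 21.7 and 10.6 in the low bulks (log2 difference -0.63 ± 0.23, limma adjusted p = 0.457). OSH1 had a pair of probe sets that differed in sign. The one that stands for OSH1 in the counts, brighter by little, had a log2 difference of -0.31 ± 0.18 (SE). It is of the type whose probes can also match other genes. The other had a difference of 0.29 ± 0.19 (SE), and neither passed. HOS59 was listed as another name of OSH71 but matched a separate gene. It is still counted among the downstream genes and their negative differences, at -0.02 ± 0.24 (SE).

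The other downstream gene at an unadjusted p under 0.05 was EXPA5, an expansin that loosens cell walls, also chosen after its value was seen. It read 265 and 316 in the high bulks, against 401 and 409 in the low bulks, and the groups did not overlap. Its log2 difference was -0.46 ± 0.19 (SE, limma adjusted p = 0.553). JMJ706 and CR4, floral genes that GRF6 and GRF10 activate in rice, had log2 differences of 0.17 ± 0.22 and 0.07 ± 0.21 (SE), and with the deposited scaling these were -0.02 and -0.10.

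**Figure D4:**
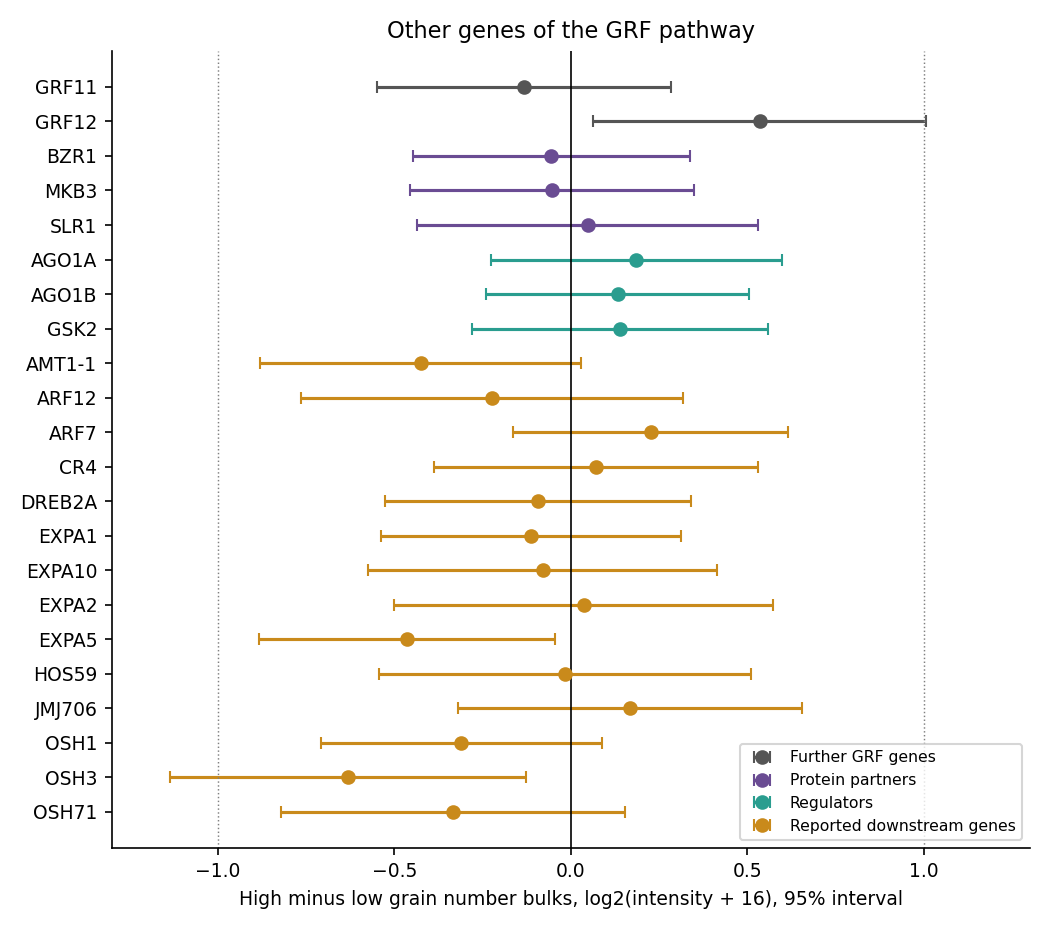
High minus low difference on the log2(intensity + 16) scale, with 95% limma intervals, for 22 other genes of the pathway after quantile normalisation; 1 probe set stands for each gene and dotted lines mark 2-fold. The intervals of GRF12, EXPA5 and OSH3 do not cross 0, and 0 of the 22 passed after adjustment over all probe sets.

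GRF4 had the smallest p of the 8 genes, and the tested probe sets most like it across the 4 arrays were found by the distance between log2 values centred on each probe set's mean. The closest 3 among 19325 probe sets paired with 1 gene were those of LOC4343904, LOC4336487 and LOC4323862. Their distances were 0.02, 0.03 and 0.03, against a median distance of 0.44, and their high minus low log2 differences were 0.31, 0.30 and 0.28. Choosing the closest probe sets fixes in advance that distances are small and differences near that of GRF4.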

How the data were processed

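The authors hybridised biotin-labelled cRNA from TRIzol-extracted RNA to Affymetrix rice arrays, per the labels' protocols. The deposited values are linear intensity values, 1 per probe set and array. The submitters' processing notes name GCOS 1.2, the maker's array software, and its scaling target is not given in the sources used here. The median deposited signal was 4.90 to 6.50, so many probe sets are dim, and the number of arrays limits the precision.

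From the 57381 probe sets, 187 controls were left out. Values were quantile normalised and put on a log2(intensity + 16) scale, which understates changes of dim probe sets. A filter then removed those whose mean log2 value was below the 40th percentile. High and low bulks were compared in R 4.3.3 by limma 3.58.1, with lmFit, trended eBayes and no covariate. In counts, a gene is represented by its brightest probe set. All 8 GRF genes are named. Other pathway genes were to be named if they passed or were GRF11, GRF12 or a GRF-interacting factor. Names matching several genes (ARF2, CYCB1-1, BC1, TIP2 and CP1) were left out. The gene table (assembly ASM3414082v1) was used only for names, and no coordinates or sequences are given. The steps were tested on simulated data. The members and lists were chosen with earlier results of these data known. Alternatives were the scaling, the added constant, the filter, the variance trend, a replicate block, the mean of a gene's probe sets, and leaving out each array.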

Additional observations from a re-analysis of the deposited data

How the results depend on the processing

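The count of GRF genes past the threshold was 0 of 8 under each of the 12 alternatives fitted across all probe sets and with the mean of a gene's probe sets, and the count of other pathway genes was 0 under those 12. The signs of the family depended on the scaling. The median GRF difference was -0.026 when the deposited scaling was kept and -0.023 after median centring, and the number of positive GRF differences was 4 under each, against 0.16 and 7 after quantile normalisation. These scalings also moved the median of all tested probe sets, to -0.075 and -0.072 against 0.012, with 37.9% and 38.4% of them positive, so the GRF median lay above that of all probe sets under each. The number of positive GRF differences was 7 under the other alternatives. The GRF differences at 1 or more settings had the opposite sign for GRF1, GRF3, GRF6, GRF7, GRF10 and GRF10's second probe set, and at none for GRF4, GRF5 and GRF8. Without 1 array the median GRF difference ranged from 0.093 to 0.21, and the count was 7 each time. In these fits the spread of the lone array is taken from the other pair.

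The background count of probe sets past the threshold (195) was 391 after median centring, 128 with log2(value + 1) and 0 with no filter on dim probe sets (limma, 3849 at an unadjusted p under 0.05, 57194 tested). Without 1 array it ranged from 53 to 229: 90 when high replicate 1 was left out, 54 for low replicate 1 and 53 for low replicate 2. With the replicate number as a block it was 654, with 0 GRF genes. The labels do not say that the numbers mark a shared batch, so the numbers were not taken as pairs. The deviations of same-numbered arrays from their group means correlated at 0.111 across probe sets. High replicate 2 correlated at 0.9754 with low replicate 2 and at 0.9745 with high replicate 1. The correlation was 0.9693 between high and low replicate 1 and 0.9811 between the low replicates. Whether the numbers mark a shared batch was not tested. The dim signal of GRF3 limits what can be said of it.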
